A study of Homo sapiens with 24 samples.

Results

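The 10 genes described here encode proteins that carry glucose into the cell and turn it into pyruvate and lactate. They are the glucose transporters *SLC2A1* and *SLC2A3*, the hexokinases *HK1* and *HK2*, the phosphofructokinase regulator *PFKFB3*, the enzymes *GAPDH*, *PGK1*, *ENO1* and *PKM* of the second stage of glycolysis, and the lactate dehydrogenase gene *LDHA*. They were chosen by name and found by Entrez identifier, 10 of 25702 identifiers counted in every sample, and all 10 passed the low-count filter that left 13356 genes for testing. RNA-seq was carried out on IMR90 cells, which are human lung fibroblasts, in 24 samples that fall into 4 groups of 6 biological replicates. All 4 groups, the controls included, carried a retroviral ER:HRAS(G12V) transgene, an oncogenic RAS fused to the oestrogen receptor and switched on by 4-hydroxytamoxifen (4OHT), and cells were used at passages given only as a range. Growing cells carried the empty MSCV vector and received no agent, and shHMGA1 cells carried an MSCV miR30 hairpin against *HMGA1* and received no agent. RIS cells (RAS-induced senescence) carried the empty vector and were treated with 4OHT for 6 days, and RIS+shHMGA1 cells carried the hairpin and were treated in the same way. No group received 4OHT without the transgene and no group carried an unrelated hairpin, so that 4OHT and RAS, and the hairpin's target and the presence of any hairpin, cannot be told apart.

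In glycolysis, glucose enters through the facilitative transporters GLUT1 (*SLC2A1*) and GLUT3 (*SLC2A3*), is trapped by hexokinase as glucose 6-phosphate and is committed by phosphofructokinase, which the product of *PFKFB3* stimulates through fructose 2,6-bisphosphate. The later enzymes regain ATP and NADH, and lactate dehydrogenase returns NAD from NADH so that the pathway can continue. In fibroblasts, growth signals, RAS, MYC and the oxygen-sensing factor HIF-1 are known regulators of these genes, and HIF-1 binds DNA at a core of the letters ACGTG or GCGTG.

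With 4OHT in cells that carried the hairpin, *HK2* and *PGK1* were higher and *SLC2A1* was lower, while the other 7 genes did not pass the thresholds. Of all tested genes, 39.1% passed in this comparison, and *PGK1* no longer passed in several fits that left out a replicate number. In cells with the empty vector the fold changes of *HK2*, *PGK1* and *SLC2A1* had the same signs. None passed in the labelled groups, where 0% of all tested genes did. All 3 passed once 2 libraries that stood apart from their groups were left out, where 39.7% of genes tested in that fit did. The hairpin alone changed none of the 10 genes past the thresholds, in growing or in 4OHT-treated cells, where 0.27% and 2.55% of tested genes passed. In bulk RNA, a change in every cell and a change in the share of cells that carry the transcript cannot be told apart.

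The promoters of these 3 genes are shown because their transcripts are the ones that moved with 4OHT. Each is 300 bases of RefSeq sequence on GRCh38.p14, from 250 bases before the transcription start to 50 bases after it. Letters in capitals mark ACGTG on either strand, which reads CACGT when it lies on the opposite strand.
SLC2A1 (chr1:42958819-42959118, minus strand): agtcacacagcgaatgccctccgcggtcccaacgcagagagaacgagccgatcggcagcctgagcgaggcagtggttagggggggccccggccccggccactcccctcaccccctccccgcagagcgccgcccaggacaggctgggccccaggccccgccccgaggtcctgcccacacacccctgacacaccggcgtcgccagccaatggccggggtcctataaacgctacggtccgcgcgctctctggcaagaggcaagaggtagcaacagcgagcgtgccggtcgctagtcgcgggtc
HK2 (chr2:74833877-74834176, plus strand): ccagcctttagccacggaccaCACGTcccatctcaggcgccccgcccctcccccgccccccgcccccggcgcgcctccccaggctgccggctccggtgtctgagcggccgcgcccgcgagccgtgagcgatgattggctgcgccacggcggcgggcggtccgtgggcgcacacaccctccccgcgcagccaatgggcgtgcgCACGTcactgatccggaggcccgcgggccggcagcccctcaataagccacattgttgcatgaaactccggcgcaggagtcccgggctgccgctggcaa
HK2, second promoter (chr2:74834920-74835219, plus strand): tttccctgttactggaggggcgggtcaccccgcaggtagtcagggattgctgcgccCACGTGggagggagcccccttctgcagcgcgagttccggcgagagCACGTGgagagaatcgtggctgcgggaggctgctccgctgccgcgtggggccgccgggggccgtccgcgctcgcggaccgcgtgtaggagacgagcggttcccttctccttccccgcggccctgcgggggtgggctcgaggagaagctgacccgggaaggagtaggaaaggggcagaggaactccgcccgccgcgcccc
PGK1 (chrX:78103998-78104297, plus strand): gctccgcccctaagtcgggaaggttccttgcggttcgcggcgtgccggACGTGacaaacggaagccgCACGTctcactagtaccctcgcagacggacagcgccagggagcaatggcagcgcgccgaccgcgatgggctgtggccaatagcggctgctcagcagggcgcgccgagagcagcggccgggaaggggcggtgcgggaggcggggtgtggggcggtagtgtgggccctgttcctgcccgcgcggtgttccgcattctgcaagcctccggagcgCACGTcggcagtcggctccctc
The *SLC2A1* window held ACGTG at 0 positions, the first *HK2* window at 2 and the *PGK1* window at 3. The second *HK2* window held 4 overlapping matches, which are 2 copies of the palindrome CACGTG read on both strands. Of 35116 promoter windows of this length, 21.4% held ACGTG, 36.5% held GCGTG and 7.3% held CACGTG, all searched on both strands. GCGTG is not marked in capitals. The *SLC2A1*, first *HK2* and *PGK1* windows each held it at 1 position and the second *HK2* window at 2. Genes that did not pass the thresholds held ACGTG too, with palindromes again read on both strands. The first *LDHA* window held it at 5 positions, and the *GAPDH* and second *PFKFB3* windows each at 2. The *ENO1* and *PKM* windows, all *HK1* windows, the second *LDHA* window and the first *PFKFB3* window held it at 0. These matches describe the letters of the windows only. The table held windows for 9 of the 10 genes, with no entry for *SLC2A3*.

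The authors deposited raw counts per gene, with totals between 8698070 and 23103424 per sample and a median of 10604084. Values per sample are given as CPM, read counts scaled to the TMM-normalised library size. A gene was called higher or lower where edgeR's quasi-likelihood test on all 24 samples, with Benjamini-Hochberg adjustment, gave an adjusted p (FDR) below 0.01 and its log2 fold change was past 0.58 in either direction. *HMGA1* lay between 54.4 and 262 CPM in the 12 samples with the hairpin and between 639 and 861 CPM in the 12 with the vector. It was lowest in replicates 5 and 6 of both hairpin groups. In shHMGA1 samples these had 58.1 and 54.4 CPM, against 98.7 to 143 CPM in the other replicates. In RIS+shHMGA1 samples they had 60 and 75.1 CPM, against 197 to 262 CPM. A pair of libraries went against their labels. Growing replicate 4 had 172119 CPM summed over 8 secretome genes of senescent cells and 220.4 CPM over 8 proliferation genes, against 6112 to 13548 and 641 to 918 CPM in the other growing samples. RIS replicate 2 had 8396 and 705 CPM, against 61944 to 140973 and 130.3 to 196 CPM in the other RIS samples. Both were kept in their labelled groups, and results that rest on them are given with and without them. All 10 fibroblast markers were expressed, with sums of 5965 to 51429.6 CPM for growing, 16223 to 23464 CPM for shHMGA1, 6831 to 32201 CPM for RIS and 5346 to 6920.2 CPM for RIS+shHMGA1 samples, and the part of this fall in the results below was not tested. Summed markers of epithelium, endothelium and skeletal muscle reached at most 1.68, 2.65 and 0.496 CPM in any sample, and of the 6 blood markers only *CD68* passed the filter.

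Compared per kilobase of canonical transcript, the levels of the 10 genes spanned a wide range. Over the 24 samples the mean level per kilobase was 2973 CPM for *GAPDH*, 1616 for *PKM*, 949 for *ENO1*, 469 for *LDHA*, 223 for *PGK1*, 61.1 for *SLC2A1*, 47.9 for *HK1*, 18.6 for *PFKFB3*, 14.7 for *HK2* and 10 for *SLC2A3*. The 4 enzymes of the second stage and *LDHA* were thus more abundant than the transporters, the hexokinases and *PFKFB3*. With all annotated exonic bases as the length, *PGK1* (198) passed *LDHA* (174) and *HK2* (14.0) passed *PFKFB3* (13.6), so that the order within these pairs depends on the length chosen. The neighbours *HK2* and *SLC2A3* differed by less than the SD of *HK2* in growing samples (12.2 ± 2.01 and 10.7 ± 1.07 CPM per kilobase, SD, n = 6), whereas in RIS samples they were 20.8 ± 5.64 and 11.3 ± 0.777. As a share of all counted reads, the 10 genes took 1.1 to 1.38% of growing, 1.21 to 1.39% of shHMGA1, 1.13 to 1.32% of RIS and 0.985 to 1.09% of RIS+shHMGA1 libraries. The RIS+shHMGA1 range lay below the other 3 ranges. In this group the 8 secretome genes summed to 132453 to 237474 CPM, and any link between share and sum was not tested.

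**Figure D1:**
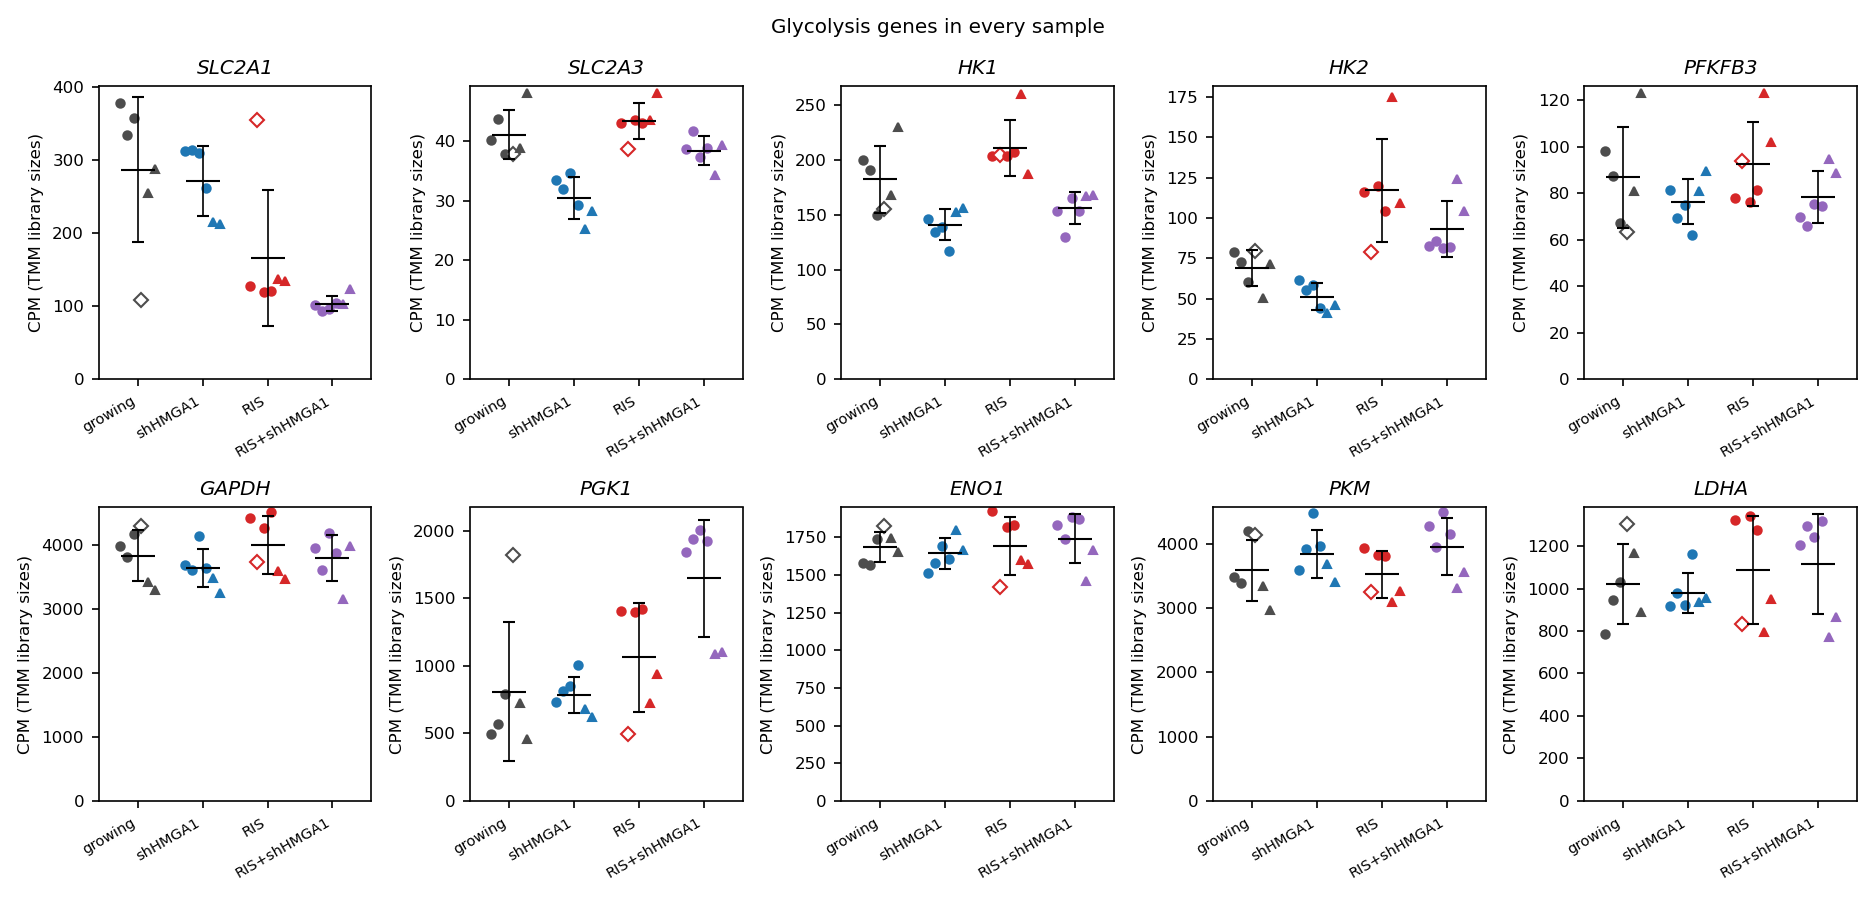
Each panel plots 1 gene in CPM on TMM library sizes (vertical axis, starting at 0) for the 24 samples in 4 groups (horizontal axis); the black dash and bar are the mean and SD of 6 samples, open diamonds are growing replicate 4 and RIS replicate 2, and triangles are replicates 5 and 6. *SLC2A1* lies between 93.9 and 123 CPM in all RIS+shHMGA1 samples and at 213 CPM or more in all shHMGA1 samples, while *GAPDH*, *ENO1* and *PKM* overlap across all groups.

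The transporters came first in the pathway and moved in different ways. *SLC2A1* (chromosome 1, 43391024 to 43424564 in GRCh37), the gene of the widely expressed transporter GLUT1, had 378, 334, 358, 108, 255 and 288 CPM in growing replicates 1 to 6, so that replicate 4 was the lowest, as the plot of CPM by sample shows. In RIS samples it had 127, 355, 119, 121, 137 and 134 CPM, with replicate 2 the highest. These values put growing replicate 4 among the RIS samples and RIS replicate 2 among the growing samples. In shHMGA1 samples it had 312, 314, 309.7, 262, 215 and 213 CPM, and in RIS+shHMGA1 samples 102, 93.9, 95.6, 104, 103 and 123 CPM. The last 2 groups did not overlap, and RIS+shHMGA1 samples had 0.382 times the level of shHMGA1 samples (log2 fold change −1.39, standard error 0.27, adjusted p = 0.00037 by edgeR). *SLC2A1* was the only one of the 10 genes called lower there, where 19.5% of the tested genes were. Against growing samples the log2 fold change was −1.47 in RIS+shHMGA1 (standard error 0.27, adjusted p = 0.00023 by edgeR, 23.9% of tested genes called lower).

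For RIS against growing samples, *SLC2A1* had a log2 fold change of −0.79 (standard error 0.26, adjusted p = 0.045 by edgeR), which did not pass the FDR threshold. Without growing replicate 4 it was −0.96 (adjusted p = 0.0017 by edgeR), without RIS replicate 2 it was −1.17 (adjusted p = 0.00018) and without both it was −1.34 (standard error 0.13, adjusted p = 3.5e-09). It was then the only one of the 10 genes called lower, against 20.5% of genes tested in that fit, and it lay at 255 CPM or more in each of 5 growing samples and at 137 CPM or less in each of 5 RIS samples. The call in the RIS comparison thus rested on how these libraries were treated.

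*SLC2A3*, the gene of GLUT3, a transporter of high glucose affinity, was the least abundant of the 10 per kilobase and had little spread within groups. Its lowest, median and highest values were 37.8, 39.5 and 48.1 CPM in growing and 25.2, 30.5 and 34.7 CPM in shHMGA1 samples. These groups did not overlap. The log2 fold change of −0.43 (standard error 0.09, adjusted p = 0.016 by edgeR) passed neither threshold, and without growing replicate 4 and RIS replicate 2 it was −0.46 (adjusted p = 0.0026), still under the fold threshold. In RIS samples the values were 38.7, 43.3 and 48.1 CPM, and in RIS+shHMGA1 samples 34.3, 38.7 and 41.7 CPM. RIS+shHMGA1 samples were 1.26 times shHMGA1 samples (log2 fold change 0.33, standard error 0.09, adjusted p = 0.0031 by edgeR), past the FDR but not the fold threshold, and the ranges overlapped. *SLC2A14*, a near-identical copy of this gene, had 2 to 11 counts per sample, against 265 to 1010 for *SLC2A3*, and how reads shared by both were counted is not given in the sources used here.

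Among the hexokinases, the widely expressed *HK1* and the inducible *HK2* differed in their response to 4OHT. *HK2* (chromosome 2, 75061254 to 75120486 in GRCh37) had 79.1, 72.5, 60.3, 79.3, 50.6 and 71.4 CPM in growing replicates 1 to 6. In RIS samples it had 116, 79.1, 119.7, 104, 175 and 109 CPM, of which only replicate 2 lay within the growing range. In hairpin cells it had 61.7, 55.6, 58.6, 44, 41.4 and 46.1 CPM without 4OHT and 82.6, 85.4, 81.5, 81.9, 124 and 104 CPM with 4OHT. Every RIS+shHMGA1 sample therefore lay above every shHMGA1 and every growing sample. The log2 fold change of RIS+shHMGA1 against shHMGA1 was 0.86, or 1.82-fold (standard error 0.16, adjusted p = 0.00034 by edgeR), in a comparison in which 19.6% of tested genes were called higher. Without replicates 5 and 6 of every group, growing replicate 4 and RIS replicate 2 it was 0.56 (adjusted p = 0.00012 by edgeR), just under the fold threshold.

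For RIS against growing samples, *HK2* had the lowest adjusted p of the 10 genes, a log2 fold change of 0.77, or 1.70-fold (standard error 0.16, adjusted p = 0.014 by edgeR). DESeq2 gave 0.78 with an adjusted p of 0.00062 and called it. It passed without RIS replicate 2 (0.86, adjusted p = 0.00022 by edgeR) and without growing replicate 4 (0.81, adjusted p = 0.00078), and without both it was 0.90 (standard error 0.16, adjusted p = 3e-05), where 19.2% of genes tested were called higher. RIS+shHMGA1 samples were 1.35 times growing samples (log2 fold change 0.44, adjusted p = 0.021 by edgeR) and were not called.

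*HK1*, whose product binds the outer mitochondrial membrane, had lowest, median and highest values of 149.8, 179 and 230 CPM in growing and 117, 142 and 156 CPM in shHMGA1 samples. In RIS samples these were 187, 204 and 260 CPM, and in RIS+shHMGA1 samples 129.6, 159 and 168 CPM. All RIS+shHMGA1 samples lay below all RIS samples, with a log2 fold change of −0.43, or 0.74 times (standard error 0.11, adjusted p = 0.013 by edgeR). That missed both thresholds, and without growing replicate 4 and RIS replicate 2 it was −0.44 (adjusted p = 0.0047), past the FDR alone. The shHMGA1 samples gave −0.37 against growing (adjusted p = 0.13 by edgeR), with ranges that overlapped. The change with 4OHT was small in both backgrounds, at 0.21 for RIS against growing (95% interval −0.02 to 0.44) and 0.15 for RIS+shHMGA1 against shHMGA1 (95% interval −0.08 to 0.38).

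*PFKFB3*, which makes the activator of phosphofructokinase, had lowest, median and highest values of 63.5, 84.3 and 123 CPM for growing, 62.1, 77.9 and 89.7 CPM for shHMGA1, 76.0, 87.7 and 123 CPM for RIS and 65.9, 75.1 and 94.8 CPM for RIS+shHMGA1 samples. All 4 ranges overlapped. Its log2 fold changes lay between −0.24 for RIS+shHMGA1 against RIS (95% interval −0.56 to 0.07, adjusted p = 0.20 by edgeR) and 0.09 for RIS against growing (95% interval −0.22 to 0.41, adjusted p = 0.68).

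Of the second-stage enzymes, *PGK1* (chromosome X, 77166236 to 77384792 in GRCh37), which makes the first ATP of that stage, moved with 4OHT and varied most within groups. Growing replicates 1 to 6 had 493, 567, 789, 1822, 722 and 457 CPM, with replicate 4 above every other vector sample. RIS replicates had 1405, 497, 1398, 1417, 720.4 and 939 CPM, which overlapped the growing range in replicates 2 and 5 also when growing replicate 4 was set aside. In shHMGA1 samples it had 729, 811, 851, 1004, 681 and 624 CPM, and in RIS+shHMGA1 samples 1839, 1936, 2005, 1920.4, 1086 and 1098 CPM. The hairpin groups did not overlap, and replicates 5 and 6 were the lowest with 4OHT in this group and the lowest apart from replicate 2 in RIS.

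RIS+shHMGA1 samples had 2.10 times the *PGK1* level of shHMGA1 samples (log2 fold change 1.07, standard error 0.31, adjusted p = 0.005 by edgeR). This call lost significance when replicate 1, 2, 3, 5 or 6 was left out of all groups, with log2 fold changes of 1.00 to 1.13 and adjusted p of 0.011 to 0.024, and it was kept without growing replicate 4 and RIS replicate 2 (1.07, standard error 0.19, adjusted p = 3.7e-05). Against growing samples RIS+shHMGA1 gave 1.03 (standard error 0.31, adjusted p = 0.0055 by edgeR), the only one of the 10 genes called higher, where 22% of tested genes were. It missed the FDR in a fit of those 2 groups alone (1.01, adjusted p = 0.017 by edgeR) and whenever replicate 1, 2, 3, 5 or 6 was left out (adjusted p of 0.011 to 0.036), and without growing replicate 4 and RIS replicate 2 it was 1.44 (adjusted p = 1.2e-06). For RIS against growing it was 0.39 (standard error 0.30, adjusted p = 0.37 by edgeR), and without these 2 libraries 0.96 (standard error 0.21, adjusted p = 0.00046).

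*GAPDH*, which oxidises glyceraldehyde 3-phosphate and often serves as a reference gene, was the most abundant of the 10 per kilobase, with group means of 3838 ± 401 CPM for growing, 3640.5 ± 295 for shHMGA1, 4003 ± 455 for RIS and 3799 ± 363 for RIS+shHMGA1 samples (SD, n = 6). All ranges overlapped. Its log2 fold changes lay between −0.08 and 0.06 in the 5 comparisons, with 95% intervals within −0.32 and 0.30. *ENO1*, the enolase that forms phosphoenolpyruvate, had 1684 ± 101, 1642 ± 99.9, 1694 ± 193 and 1742 ± 163 CPM in the same order of groups, with log2 fold changes of −0.04 to 0.08. *PKM*, whose pyruvate kinase makes the second ATP, had 3582 ± 481, 3838 ± 375, 3523 ± 365 and 3953 ± 449 CPM, with log2 fold changes of −0.02 to 0.17. Gene counts do not separate the M1 and M2 isoforms of *PKM*, and the tested genes held no pseudogene of these enzymes.

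*LDHA*, the lactate dehydrogenase subunit that favours lactate formation, was not called in any comparison. Growing replicates had 786, 948, 1029.6, 1303, 1167 and 889 CPM and shHMGA1 replicates 919, 977, 923, 1162, 939 and 954 CPM. With 4OHT, RIS replicates had 1322, 834, 1342, 1274, 796 and 950.3 CPM and RIS+shHMGA1 replicates 1206, 1296, 1243, 1319, 774 and 867 CPM. All groups overlapped, and with 4OHT replicates 5 and 6 lay below replicates 1, 3 and 4 in both backgrounds. The log2 fold change was 0.09 for RIS against growing (95% interval −0.25 to 0.44) and 0.19 for RIS+shHMGA1 against shHMGA1 (95% interval −0.15 to 0.54). Without growing replicate 4, RIS replicate 2 and replicates 5 and 6 of every group, the first was 0.52 (standard error 0.12, adjusted p = 0.00096 by edgeR), past the FDR but not the fold threshold.

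Counted over the 10 genes, 4OHT in hairpin cells gave 3 calls of 10 (2 higher, 1 lower), where 39.1% of the 13356 tested genes were called, and the 3 genes without overlap between the groups compare with 43.4% of all tested genes. RIS+shHMGA1 against growing gave 2 calls of 10, against 45.9% of tested genes, and only *HK2* had groups without overlap, as did 6.42% of tested genes. With only 10 genes, such small counts cannot tell the members apart from the background in either comparison, and no test of the set was run. RIS against growing gave 0 of 10 at a background of 0%, with *SLC2A1* and *HK2* at an unadjusted p under 0.05 by edgeR (33% of tested genes), 1 (*HK2*) called by DESeq2 (6.21%) and 0 without overlap (0.367% of tested genes). Leaving out growing replicate 4 and RIS replicate 2 gave 3 of 10 at a background of 39.7%, and 2 without overlap (35.2%), *HK2* higher and *SLC2A1* lower.

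**Figure D2:**
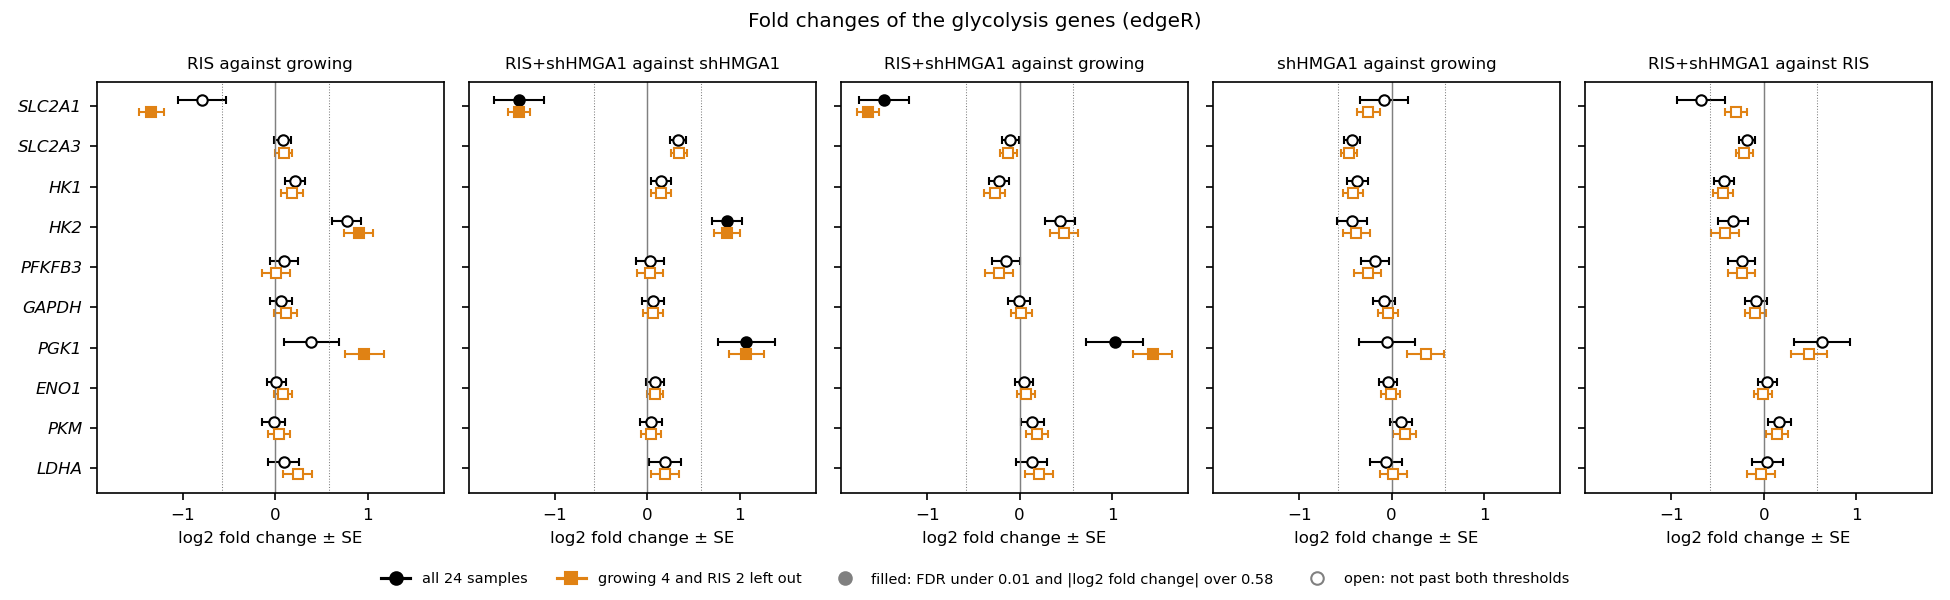
For each of 5 comparisons (panels) the log2 fold change of the 10 genes is plotted with its standard error, from all 24 samples (black circles) and without growing replicate 4 and RIS replicate 2 (orange squares); filled symbols pass both thresholds and dotted lines mark log2 fold changes of −0.58 and 0.58. *SLC2A1* at −0.79, *HK2* at 0.77 and *PGK1* at 0.39 are open for RIS against growing with all samples and filled at −1.34, 0.90 and 0.96 without these 2 libraries.

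The hairpin alone gave 0 calls of 10 in growing cells, where 0.27% of tested genes were called. At an unadjusted p under 0.05 edgeR gave 3 of the 10, *SLC2A3*, *HK1* and *HK2*, all with negative fold changes, beside 13.2% of tested genes, and DESeq2 called 0 (0.741%). Only *SLC2A3* had groups without overlap, compared with 1.3% of tested genes. In 4OHT-treated cells the hairpin gave 0 calls of 10, against 2.55% of tested genes, with 3 of the 10 at an unadjusted p under 0.05 (*SLC2A1*, *HK1* and *PGK1*; 49.8% of tested genes) and 0 called by DESeq2 (11.8%). *HK1* was the one gene without overlap there, as were 13.2% of tested genes. In this comparison *SLC2A1* gave −0.68 (standard error 0.26, adjusted p = 0.048 by edgeR) and −0.30 without growing replicate 4 and RIS replicate 2 (adjusted p = 0.05). *PGK1* gave 0.63 (standard error 0.30, adjusted p = 0.098 by edgeR) and 0.49 without them (adjusted p = 0.06).

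Whether 4OHT acted differently in hairpin and vector cells was tested by the interaction of hairpin and RAS. It called 0 of the 10 genes and 0% of all genes, with 1 of the 10 (*SLC2A3*, 0.26) at an unadjusted p under 0.05 by edgeR, as were 10.3% of tested genes, and 0 called by DESeq2 (0.0374%). The interaction was −0.59 for *SLC2A1* (95% interval −1.37 to 0.18), 0.10 for *HK2* (95% interval −0.38 to 0.57) and 0.68 for *PGK1* (95% interval −0.21 to 1.57). These intervals are wide for *SLC2A1* and *PGK1*, and without growing replicate 4 and RIS replicate 2 the values were −0.05, −0.04 and 0.12 (standard errors 0.17, 0.21 and 0.29).

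Ratios between paired genes do not depend on library scaling. They are log2 ratios of counts within a sample, compared between groups by two-sided exact permutation tests with adjustment over the 15 tests of 3 ratios. *HK2* relative to *HK1* was −1.40 ± 0.28 for growing, −1.47 ± 0.28 for shHMGA1, −0.88 ± 0.27 for RIS and −0.76 ± 0.22 for RIS+shHMGA1 samples (SD, n = 6). The balance moved towards *HK2* with 4OHT, by 0.71 in hairpin cells (exact permutation p = 0.0022, the smallest that 6 against 6 samples allow, adjusted 0.0081) and by 0.52 in vector cells (exact permutation p = 0.015, adjusted 0.028). The latter did not pass when replicate 1, 3, 5 or 6 was left out of both groups, with differences of 0.40 to 0.52 and adjusted exact permutation p of 0.074 to 0.10, and it was 0.71 without growing replicate 4 and RIS replicate 2 (adjusted 0.012). The hairpin shifted this ratio by −0.06 in growing cells (exact permutation p = 0.72) and by 0.12 in 4OHT-treated cells (exact permutation p = 0.43).

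*SLC2A1* relative to *SLC2A3* was 2.70 ± 0.65 for growing, 3.14 ± 0.13 for shHMGA1, 1.80 ± 0.68 for RIS and 1.43 ± 0.17 for RIS+shHMGA1 samples. The difference with 4OHT was −1.71 in hairpin cells (exact permutation p = 0.0022, adjusted 0.0081) and −0.90 in vector cells (exact permutation p = 0.056, adjusted 0.084), and the latter was −1.42 without growing replicate 4 and RIS replicate 2 (exact permutation p = 0.0079, adjusted 0.012). *LDHA* relative to *LDHB*, the subunit that favours pyruvate formation, was 1.77 ± 0.29, 1.59 ± 0.13, 1.32 ± 0.29 and 0.82 ± 0.30 in the same order of groups. It was lower with 4OHT in hairpin cells by a difference of −0.77 (exact permutation p = 0.0022, adjusted 0.0081) and lower with the hairpin in 4OHT-treated cells by a difference of −0.50 (exact permutation p = 0.0043, adjusted 0.011). In vector cells the 4OHT difference was −0.44 (exact permutation p = 0.045, adjusted 0.076), and −0.67 without these 2 libraries (exact permutation p = 0.0079, adjusted 0.012). *LDHA* itself was not called in these comparisons, while *LDHB* was 0.94 higher on the log2 scale in RIS+shHMGA1 than in shHMGA1 samples (standard error 0.20, adjusted p = 0.00082 by edgeR). *LDHB* was not called for RIS+shHMGA1 against RIS (0.49, adjusted p = 0.059 by edgeR) or for RIS against growing (0.50, adjusted p = 0.089). Without growing replicate 4 and RIS replicate 2 these were 0.36 (not called) and 0.89 (called higher).

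**Figure D3:**
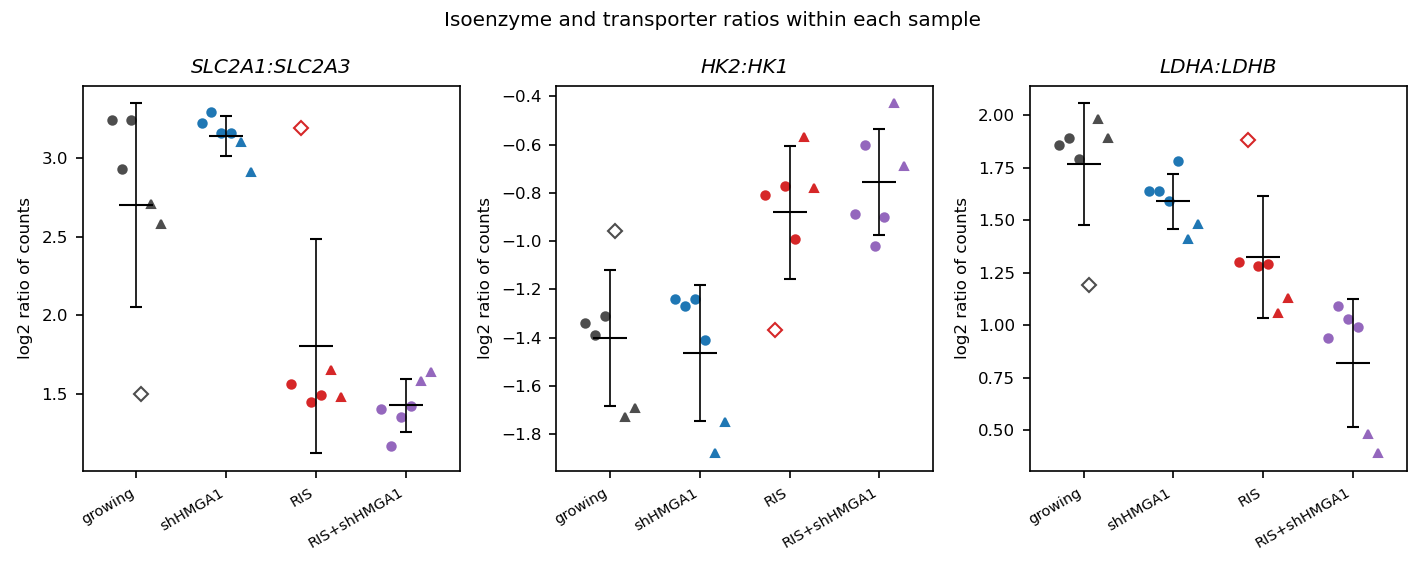
The log2 ratio of counts within each sample (vertical axis) is shown for 3 gene pairs in the 4 groups, with mean and SD of 6 samples; open diamonds are growing replicate 4 and RIS replicate 2 and triangles are replicates 5 and 6. For *HK2* to *HK1* all 6 RIS+shHMGA1 samples (−1.02 to −0.43) lie above all 6 shHMGA1 samples (−1.88 to −1.24). For *LDHA* to *LDHB* the RIS+shHMGA1 samples, at 0.39 to 1.09, lie below all growing and shHMGA1 samples and overlap the RIS group at its replicate 5 (1.06).

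The remainder of the pathway was described by lists, compared for RIS+shHMGA1 against shHMGA1, which holds neither of the libraries that stood apart. Of 13 tested other glycolytic enzymes, 4 were called higher and 2 lower, with a median log2 fold change of 0.41 beside −0.02 for all tested genes. Those called higher were *BPGM*, which makes 2,3-bisphosphoglycerate (1.54), *LDHB* (0.94), *ENO2*, the neuronal enolase (0.91), and *TPI1*, triose phosphate isomerase (0.59). Lower were *ENO3*, the muscle enolase (−1.45), and *PFKP*, the platelet phosphofructokinase (−0.70). Of 3 enzymes of fructose 2,6-bisphosphate besides *PFKFB3*, *PFKFB2* (0.92) and *TIGAR*, a phosphatase that lowers this activator (0.60), were called higher. Of 9 other glucose and lactate transporters, *SLC2A13*, a myo-inositol transporter, was higher (0.88), and *SLC2A10* (−0.77) and the monocarboxylate transporter *SLC16A7* (−0.65) were lower, while the lactate exporter *SLC16A3* was at −0.45 (adjusted p = 0.013 by edgeR) and was not called. The calls of these lists stood at 6 of 13, 2 of 3 and 3 of 9, beside 39.1% of all tested genes.

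Beyond pyruvate, 5 of 13 genes of pyruvate entry into mitochondria were called higher and 1 lower, beside 19.6% and 19.5% of all tested genes. The kinase *PDK3*, which inhibits pyruvate dehydrogenase, was higher by 1.77 on the log2 scale, the carrier subunit *MPC2* by 1.17, and the phosphatases *PDP1* and *PDP2*, which activate pyruvate dehydrogenase, by 0.95 and 0.89, so that kinases and phosphatases of opposite effect were both among them. Pyruvate carboxylase (*PC*) was at −1.74. In the 7 genes of the pentose phosphate pathway, *PGD*, 6-phosphogluconate dehydrogenase, was called higher (0.84). Of 8 glycogen genes, *GYG1* (1.00) and *PGM1* (0.78) were higher and *PYGB*, a glycogen phosphorylase, was lower (−0.62). Neither of the 2 tested gluconeogenesis genes was called, and the same background applies to these lists.

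Of 14 tested hypoxia-response genes outside glycolysis, 7 were called higher and 2 lower (median 0.66), a total of 9 of 14 beside 39.1% of all tested genes. The angiogenic factor *VEGFA* was at 1.85 and the mitophagy receptor *BNIP3L* at 1.74, while the collagen cross-linking enzyme *LOX* was at −1.46 and *P4HA2*, a collagen prolyl hydroxylase, at −0.61. Of 12 regulators, 3 were higher and 2 lower. The transcription factor *MYC* was at 1.23 and its partner *MAX* at 0.98, *HIF1A*, the oxygen-regulated subunit of HIF-1, was at −0.07 (adjusted p = 0.58 by edgeR), and *TXNIP*, an arrestin that restrains glucose uptake, was at −0.72. For RIS against growing these lists gave 0 calls in all samples. Without growing replicate 4 and RIS replicate 2 they gave 4 higher and 2 lower among other glycolytic enzymes, 3 and 1 in pyruvate entry, 8 and 1 in the hypoxia response, and 4 and 2 among regulators, beside 19.2% of genes called higher and 20.5% called lower in that fit.

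For each of the 10 genes the tested gene with the most similar profile was found by Pearson's r of log2 CPM over the 24 samples, which share their groups and the libraries that stood apart. The highest value was that of *SLC2A1* with *LIMS2* (0.995), followed by *PGK1* with *RAB32* (0.994), *LDHA* with *PDK1* (0.967), *PKM* with *PMM1* (0.966), *HK1* with *PTPN1* (0.963) and *HK2* with *ENC1* (0.952). For *PFKFB3* it was *KDM5C* (0.926), for *GAPDH* *SH3BGRL3* (0.892), for *SLC2A3* *PPP1R3B* (0.852) and for *ENO1* *CENPV* (0.843). The closest partners belonged to the 2 genes with the largest spread, for which the SD of log2 CPM within groups was 0.54 for *PGK1* and 0.48 for *SLC2A1*, against 0.13 for *SLC2A3* and *ENO1*.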

How the data were processed

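The RNA-seq data were 24 samples of IMR90 cells, grouped by the sample labels. Per the labels and the study's methods, the authors trimmed adapters (cutadapt 1.10.0), mapped reads to hg19 with STAR 2.5.0b, removed reads of low mapping quality and counted the rest per gene in Rsubread. The deposited values are raw counts for 25702 Entrez identifiers. Strand setting and annotation of the counting are not given in the sources used here. Symbols came from RefSeq (23696 identifiers matched), lengths and GRCh37 coordinates from GENCODE, promoters from RefSeq.

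In edgeR 4.0.16 (R 4.3.3, limma 3.58.1), filterByExpr, TMM normalisation and a quasi-likelihood fit of 4 group means were used, with calls at an FDR below 0.01 and a log2 fold change past 0.58 in either direction. Intervals use the standard error of the coefficient at the residual degrees of freedom. Ratios had 0.5 added to each count. Log2 CPM had a prior count of 2. Alternatives were DESeq2 1.42.0, RLE, other filters, an FDR of 0.05, single-contrast fits, a replicate block and leaving out replicates; those that leave out growing replicate 4, RIS replicate 2 or replicates 5 and 6 as a set were chosen after seeing the data. The genes and lists were chosen with earlier results of these data known. Every one of the 10 genes is named, list genes where called, and the most similar gene by correlation. *SLC16A3*, *HIF1A* and *CD68* were named after their values were seen. Some items are not reported here. Scripts were tested on simulated data. Within groups, no samples were duplicates of each other (lowest chi-square per degree of freedom 2.77). Pairs of samples from different groups are not covered by this check.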

Additional observations from a re-analysis of the deposited data

Results flagged for a closer look

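Within each group of 6, a sample was singled out where its gap to the nearest other sample exceeded 0.625 of the group's range (Dixon's 95% value). This gave 8 of 52 tests, and chance alone would give about 2.6. In 5 of the 8 the sample was growing replicate 4 or RIS replicate 2. RIS replicate 2 was the highest for *SLC2A1* (355 CPM, gap 0.925 of the range), for the ratio of *SLC2A1* to *SLC2A3* (3.19, gap 0.885) and for the ratio of *LDHA* to *LDHB* (1.88, gap 0.698). Growing replicate 4 was the highest for *PGK1* (1822 CPM, gap 0.757) and the lowest for *LDHA* to *LDHB* (1.19, gap 0.763).

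In the remaining 3, RIS+shHMGA1 replicate 6 was the highest for *SLC2A1* (123 CPM, gap 0.667), RIS replicate 5 for *HK1* (260 CPM, gap 0.726) and shHMGA1 replicate 4 for *LDHA* (1162 CPM, gap 0.763).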

How the results depend on the processing

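The totals below are for all tested genes unless the glycolysis genes are named, and comparisons are written as RIS (RIS against growing), hairpin (shHMGA1 against growing), both (RIS+shHMGA1 against growing), hairpin in RIS (RIS+shHMGA1 against RIS), RIS in hairpin (RIS+shHMGA1 against shHMGA1) and the interaction. No log2 fold change of a glycolysis gene that was called under any alternative reversed; the 58 reversals among 950 values concerned fold changes that were not called. The cause of the changes listed was not tested.

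DESeq2 called 829 genes for RIS, 99 for the hairpin, 1573 for the hairpin in RIS and 5 for the interaction, and 1 glycolysis gene for RIS. At an FDR of 0.05 the totals were 1537, 85, 2898 and 2, with 2 glycolysis genes for RIS and 1 for the hairpin in RIS. Without a filter, 23 genes were called for the hairpin and 189 for the hairpin in RIS. With the samples of the contrast alone, 5 were called for the hairpin, and 1 glycolysis gene for both. With the replicate number as a block (replicate block), 1 gene was called for RIS and 1637 for the hairpin in RIS, *PGK1* was 0.07 for the hairpin, no call of a glycolysis gene changed and no other count of calls moved by over 1.5 times. The numbers were not treated as pairing the samples, since correlations of same-numbered deviations ran from −0.594 to 0.828, with 3 to 5 of 6 pairs over 0.1, and 2 to 8 of 12 samples correlated best with their own number. In the sign-flip test within numbers, whose smallest p is 0.031, the ratio differences of 0.52, 0.65 and 0.71 for *HK2* to *HK1*, −1.27 and −1.71 for *SLC2A1* to *SLC2A3* and −0.95, −0.50 and −0.77 for *LDHA* to *LDHB* did not pass (adjusted exact p of 0.067 to 0.12). Adjustment over 15 tests would need at least 10 of them at that smallest p, so that this result follows largely from the design and does not bear on the differences, which are the same.

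Without growing replicate 4 and RIS replicate 2, 5331 genes and 3 glycolysis genes were called for RIS, 348 genes for the hairpin, 1677 for the hairpin in RIS and 1 for the interaction. The ratios of *SLC2A1* to *SLC2A3* (−1.42 for RIS) and *LDHA* to *LDHB* (−0.67 for RIS, −0.29 for the hairpin) then passed, and *HK2* to *HK1* was 0.03 for the hairpin. Signs turned for *PKM* (0.04) in RIS, *PGK1* (0.37) and *LDHA* (0.02) in the hairpin, *GAPDH* (0.02) in both, *ENO1* (−0.01) and *LDHA* (−0.03) in the hairpin in RIS, and *HK2* (−0.04), *PFKFB3* (0.02), *GAPDH* (−0.05), *PKM* (0.00) and *LDHA* (−0.05) in the interaction. Leaving out replicates 5 and 6 as well gave 6444 genes and 3 glycolysis genes for RIS, 964 for the hairpin, 1404 for the hairpin in RIS and 8 for the interaction. Signs then turned for *PFKFB3* (−0.10) and *PKM* (0.07) in RIS, *PGK1* (0.47) and *LDHA* (0.12) in the hairpin, *ENO1* (−0.04) and *LDHA* (−0.08) in the hairpin in RIS, *PFKFB3* (−0.04) in RIS in hairpin, and *HK2* (−0.12), *PFKFB3* (0.06), *GAPDH* (−0.12), *PGK1* (−0.04), *ENO1* (−0.03), *PKM* (−0.02) and *LDHA* (−0.20) in the interaction. Values near 0 also turned for *GAPDH* in both with DESeq2 (0.01) and RLE (0.01), *ENO1* in RIS (0.00) and *GAPDH* in the interaction (−0.01) without a filter, and *LDHA* in the hairpin in RIS (0.00) with the samples of the contrast alone.

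Leaving out 1 replicate or library at a time gave 0 to 3420 genes for RIS (the highest without growing replicate 4), 5 to 67 for the hairpin, 3058 to 7543 for both, 14 to 2555 for the hairpin in RIS, 3037 to 5777 for RIS in hairpin and 0 to 1 for the interaction, with 0 to 2 glycolysis genes for RIS and 1 to 2 for both. Ratios ranged from 0.40 to 0.64 (RIS), −0.10 to 0.02 (hairpin) and −0.01 to 0.20 (hairpin in RIS) for *HK2* to *HK1*, from −0.55 to −0.35 (RIS) and −0.33 to −0.10 (hairpin) for *LDHA* to *LDHB*, and from −1.13 to −0.72 (RIS) and −1.51 to −1.15 (both) for *SLC2A1* to *SLC2A3*. Of the calls among these, *HK2* to *HK1* for RIS was lost without replicate 1, 3, 5 or 6 (adjusted exact p of 0.074 to 0.10) and *SLC2A1* to *SLC2A3* for both without replicate 1 or 3 (0.051). Calls were gained for RIS without replicate 2 or 4 by *SLC2A1* to *SLC2A3* and *LDHA* to *LDHB*, and for the hairpin without replicate 4 by *LDHA* to *LDHB*. Fold changes that crossed 0 were *ENO1* (−0.04 to 0.05), *LDHA* (−0.03 to 0.21), *PFKFB3* (−0.03 to 0.19) and *PKM* (−0.06 to 0.02) in RIS, *LDHA* (−0.09 to 0.02) and *PGK1* (−0.14 to 0.37) in the hairpin, *GAPDH* (−0.07 to 0.04) in both, *ENO1* (−0.01 to 0.07) and *LDHA* (−0.07 to 0.08) in the hairpin in RIS, *PFKFB3* (−0.01 to 0.07) and *PKM* (−0.01 to 0.08) in RIS in hairpin, and *GAPDH* (−0.04 to 0.04), *HK1* (−0.16 to 0.03) and *PFKFB3* (−0.14 to 0.02) in the interaction. The lowest count of a glycolysis gene in any sample was 265 (*SLC2A3*).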

Other observations

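With 4OHT, replicates 5 and 6 stood apart from replicates 1, 3 and 4 in several of the glycolysis genes. In RIS+shHMGA1 samples, *PGK1* had 1086 and 1098 CPM in replicates 5 and 6 against 1839 to 2005 CPM in the other 4, *LDHA* had 774 and 867 CPM against 1206 to 1319 CPM, and *HK2* had 124 and 104 CPM against 81.5 to 85.4 CPM. *HK2* thus ran opposite to *PGK1* and *LDHA* between these samples. In RIS samples *PGK1* had 720.4 and 939 CPM in replicates 5 and 6 against 1398 to 1417 CPM in replicates 1, 3 and 4. The 8 secretome genes were also lower in these replicates, at 61944 and 74277 CPM in RIS and 140471 and 132453 CPM in RIS+shHMGA1 samples, against 124706 to 140973 CPM and 208569.6 to 237474 CPM in RIS replicates 1, 3 and 4 and in RIS+shHMGA1 replicates 1 to 4. Without 4OHT replicates 5 and 6 also differed in some values. Their log2 ratio of *HK2* to *HK1* was −1.73 and −1.69 in growing samples, against −1.39 to −0.96 in the other replicates. In shHMGA1 samples it was −1.88 and −1.75, against −1.41 to −1.24. *LDHA* in these replicates lay within the range of the others in both groups. The labels give no batch for these numbers. The part of any batch, or of the lower *HMGA1* in hairpin replicates 5 and 6, in these values was not tested.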
